A study of Mus musculus with 16 samples.

Results

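RANKL, the cytokine that turns macrophages into bone-resorbing osteoclasts, was added to bone marrow-derived macrophages (BMMs) that lacked the transcription factor IRF7, and the resulting change in gene expression is described here. The response was read as 2 IRF7KO RANKL libraries against 2 IRF7KO M-CSF libraries, taken from the columns that carry those names. The 4 libraries are 4 of the 16 RNA-seq libraries of the series, which has 2 experiments. All 10788 genes that the deposited filtered table kept, of 22001 counted genes, were members. That filter used the level of expression, and 63 genes passed it through their level in IRF7KO RANKL cells alone, being below 3 CPM in the other groups.

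The study addressed the part of SREBP2 and IRF7 in osteoclast differentiation in mouse. IRF7KO BMMs came from female IRF7-deficient mice, in which the gene is missing from every cell and not from macrophages alone. WT BMMs came from female C57BL6 mice, and the labels give no age for either set; an age is stated only for BMMs used in another assay. The groups used were IRF7KO RANKL, IRF7KO M-CSF, WT RANKL and WT M-CSF, with 2 libraries each. RANKL and M-CSF libraries of LysM-Cre control BMMs, from the other experiment, were also used, with 2 libraries a group. By the study, these control mice carry LysM-Cre with unaltered Srebp2 alleles. SREBP2-deficient BMMs of that experiment, from mice with Srebp2 deleted in myeloid cells, also had RANKL and M-CSF libraries, 2 a group. They served only in the fit of the LysM-Cre response, for scaling and the estimate of spread. RANKL cultures received 40 ng/ml RANKL for 3 days by the labels, while the study's methods name a higher dose. M-CSF at 23.3 ng/ml, supplied as L929-conditioned medium, was present in all groups, so M-CSF alone was the untreated state. The study describes the libraries as biological replicates, and nothing used here says whether each came from its own mouse, so the p-values measure only the spread between these libraries. With 2 libraries against 2, an exact two-sided permutation test of 1 gene cannot go below p = 0.33.

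RANKL binds its receptor RANK on macrophage precursors and signals through TRAF6, NF-kappaB and AP-1 to NFATc1, the transcription factor that drives osteoclast genes. The mature cell is multinucleated, seals onto bone with an integrin and an actin ring, acidifies the space beneath it with a proton pump, and digests the matrix with cathepsin K. IRF7 is activated by sensors of foreign nucleic acid and amplifies type I interferon, a cytokine family known to hold back osteoclast differentiation.

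Sequencing depth was 11476563 and 11180215 counted reads in the IRF7KO RANKL libraries, against 11600404 and 9118102 in the IRF7KO M-CSF libraries. The WT libraries lay between 8178505 and 12746916 counts, and 1 count was worth between 0.0765 and 0.128 CPM (counts per 1000000 counts of the TMM-scaled library) across the 8 libraries. Irf7 itself had 23 and 6 counts in IRF7KO RANKL cells and 11 and 3 counts in IRF7KO M-CSF cells, against 431 and 566 counts in WT RANKL cells and 1019 and 753 counts in WT M-CSF cells. All IRF7KO libraries were thus far below all WT libraries at the targeted gene. Library 1 of IRF7KO RANKL stood apart from library 2: 299 genes differed more than 2-fold between them on log2(CPM + 1), 238 of them higher in library 1. The WT RANKL pair differed more than 2-fold at 256 genes, and the IRF7KO M-CSF pair at 121. Of the 299 genes, 284 had the same sign in the WT RANKL pair and 161 passed 2-fold there in the same direction. What set these libraries apart was not tested, and results that rest on 1 of them are given with and without it.

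RANKL changed a large share of the genes of IRF7KO cells. Of the 10788 genes, 5318 passed the test (49.3%), 2782 of them higher (25.8%) and 2536 lower (23.5%) with RANKL than with M-CSF alone, by edgeR's quasi-likelihood test at an adjusted p of 0.05. By fitted fold change, which for genes without reads in a group rests on the prior count, 654 genes rose and 583 fell by more than 4-fold, 400 rose and 269 fell by more than 8-fold, and 202 rose and 43 fell by more than 32-fold. Both RANKL libraries lay beyond both M-CSF libraries, in either direction, at 8210 genes (76.1%). Among 86 long intergenic non-coding RNAs, 28 rose and 16 fell. These are bulk cultures, in which fewer cells of a type and less RNA per cell cannot be told apart.

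Genes of bone resorption were among the largest and most abundant rises. All 16 osteoclast effector genes rose in IRF7KO cells, with a median log2 fold change of 8.02, or 7.97 when genes without M-CSF reads are set at their lower bound, beside a median near 0 over all genes. Ctsk, the collagen-cutting protease cathepsin K, had 21082 and 9282 CPM in IRF7KO RANKL cells, against 1.92 and 2.27 CPM in IRF7KO M-CSF cells. Acp5, the tartrate-resistant acid phosphatase used to stain osteoclasts, had 13031 and 10212 CPM with RANKL and 9.76 and 4.12 CPM with M-CSF. Mmp9, a gelatinase, had 20924 and 16302 CPM with RANKL and 34.1 and 59.8 CPM with M-CSF. In each case the groups were separated by more than 100-fold, and library 1 was the higher RANKL library. The log2 fold changes were 12.82 ± 0.89 for Ctsk, 10.68 ± 0.64 for Acp5 and 8.63 ± 0.48 for Mmp9 (± SE; edgeR adjusted p = 2.74e-05, 1.54e-05 and 1.16e-05).

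These genes reached the top of the transcriptome. Per kilobase of exon, Ctsk, Acp5 and Mmp9 were the 3 most abundant transcripts of IRF7KO RANKL cells, at 10041, 5725 and 5259 RPKM (CPM divided by exon length in kilobases), and ranked 9370, 7627 and 3486 in IRF7KO M-CSF cells. Together they took 5.22% and 3.71% of all counts in the RANKL libraries, against 0.00453% and 0.00670% in the M-CSF libraries. Lyz2, the macrophage lysozyme, was the most abundant transcript with M-CSF and at place 7 with RANKL, and fell by 3.28 on the log2 scale. Ftl1, the ferritin light chain, kept a place in the first 4 in both states although it too fell. Ckb, a creatine kinase that regenerates ATP, rose to place 8 with RANKL, against place 144 with M-CSF.

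**Figure D1:**
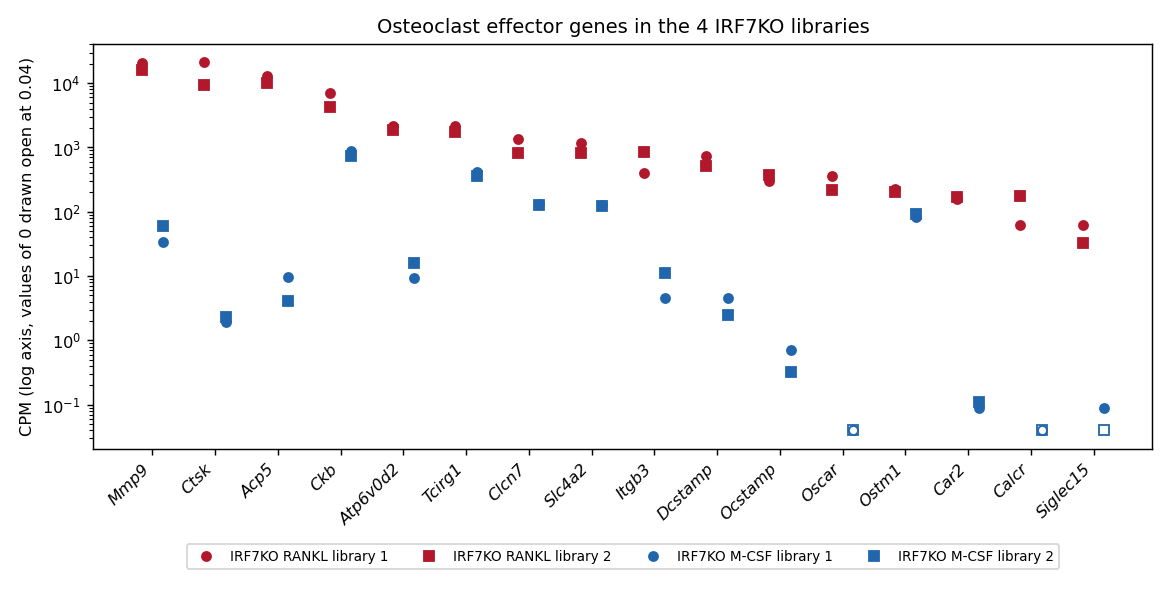
Level in CPM on a log axis for the 16 osteoclast effector genes, ordered by their level with RANKL, in each of the 4 IRF7KO libraries (RANKL red, M-CSF blue; open symbols are libraries without a read). Every RANKL library lies above every M-CSF library at all 16 genes, and Oscar and Calcr have no M-CSF read.

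Receptors and other proteins of the mature osteoclast were without reads, or nearly so, in M-CSF cells. Oscar, a collagen receptor that co-stimulates RANK, had 360.4 and 218 CPM in IRF7KO RANKL cells and no read in either IRF7KO M-CSF library, so it was at least 889.6-fold higher against a floor of 3 counts per library. Calcr, the calcitonin receptor, had 62.99 and 178 CPM with RANKL and no read with M-CSF, at least 370.5-fold higher. Siglec15, a sialic acid receptor of osteoclasts, had 62.99 and 32.9 CPM with RANKL against a single read in the 2 M-CSF libraries. All 3 were separated between the groups, but their order among the RANKL libraries differed: Oscar and Siglec15 were higher in library 1 and Calcr in library 2. Car2, the carbonic anhydrase that supplies protons, had 156 and 169 CPM with RANKL and 1 read in each M-CSF library, a ratio of 1685 (95% exact interval 466 to 13917, counting error only).

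Chloride and bicarbonate transporters rose by smaller factors and were already present in M-CSF cells. Clcn7, the chloride-proton exchanger of the ruffled border, had 1333 and 825 CPM with RANKL and 129.97 and 127 CPM with M-CSF. Ostm1, its partner subunit, had 222 and 205 CPM with RANKL and 81.7 and 92.3 CPM with M-CSF. Slc4a2, the basolateral chloride-bicarbonate exchanger, had 1172 and 834 CPM with RANKL and 127 and 125 CPM with M-CSF. Their log2 fold changes of 3.07 ± 0.31, 1.29 ± 0.13 and 2.99 ± 0.27 were all called (edgeR adjusted p = 0.000157, 0.000163 and 8.03e-05), with no overlap between the groups.

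The largest rises were mostly genes without reads in M-CSF cells. Of the 20 named as the largest rises, 15 had no read in either IRF7KO M-CSF library, so their fitted fold changes are no bounds. Mt3, a metallothionein that binds zinc and copper, had 444 and 334 CPM in IRF7KO RANKL cells and was at least 1197-fold higher. Tspan7, a tetraspanin, had 155 and 85.7 CPM and was at least 370.0-fold higher. Mst1r, the receptor for macrophage-stimulating protein, had 216 and 210.4 CPM with RANKL and 1 read with M-CSF, a ratio of 4409 (95% exact interval 791 to 174179). The remaining genes were 4833415N18Rik, Clic5, Ephx2, Serpind1, Msln, Kank1, Slc14a2, Corin, Ckmt1, Ncald and Stap2, at least 56.99-fold to 239-fold higher, and Nyap2. Clic5, a chloride intracellular channel protein, and Corin, a membrane serine protease, split the RANKL libraries: 66.7 and 13.9 CPM for Clic5 and 37.9 and 6.21 CPM for Corin, both far higher in library 1. Both calls were lost without IRF7KO RANKL library 1, at an edgeR adjusted p of 0.0719 for Clic5 and 0.0659 for Corin, as they were without either IRF7KO M-CSF library and in limma-voom.

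Of 19 transcription factors tied to osteoclasts, 11 rose and 3 fell, beside 25.8% higher and 23.5% lower of all genes. Nfatc1 had 779.7 and 522 CPM in IRF7KO RANKL cells, against 54.9 and 52.6 CPM in IRF7KO M-CSF cells, and rose by 3.60 ± 0.29 on the log2 scale (edgeR adjusted p = 5.14e-05). Fosl2, an AP-1 subunit, had 864 and 813 CPM with RANKL and 59.4 and 60.98 CPM with M-CSF. Prdm1, the repressor Blimp1 that silences brakes on NFATc1, had 164 and 180.3 CPM with RANKL and 12.2 and 8.56 CPM with M-CSF. The paired values of Fosl2 and Prdm1 were close to each other within each group, and both genes rose, by 3.80 ± 0.12 and 4.04 ± 0.22. Ppargc1b, the coactivator of mitochondrial genes in osteoclasts, rose by 4.49 ± 0.22 with 52.3 and 65.3 CPM with RANKL and 2.702 and 2.49 CPM with M-CSF. Smaller rises were called for Fos, Junb, Spi1, Mitf and Esrra, between 0.69 and 1.09 on the log2 scale. The calls of Fos and Mitf were lost without IRF7KO M-CSF library 2 or IRF7KO RANKL library 2, and that of Mitf also without IRF7KO M-CSF library 1. Jun and Myc overlapped between the groups. Tfe3, Hivep3 and Fosl1 fell. The call of Fosl1 was lost without IRF7KO M-CSF library 1 or IRF7KO RANKL library 1, and that of Hivep3 without either M-CSF library or IRF7KO RANKL library 2.

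NF-kappaB signalling genes mostly rose. Of 18 genes with a median of 1.08, 12 rose and 1 fell, beside 25.8% higher and 23.5% lower of all genes. Traf1, an NF-kappaB target that binds TNF receptors, had 179 and 196 CPM in IRF7KO RANKL cells, against 5.58 and 3.36 CPM in IRF7KO M-CSF cells, and rose by 5.37 ± 0.22 (edgeR adjusted p = 4.51e-06). Nfkb2 and Relb, the subunits of the alternative pathway, rose by 2.10 ± 0.16 and 1.74 ± 0.17, and Birc3, Nfkbie, Nfkbia and Tnfaip3, which restrain or tune the pathway, by 1.74 to 2.40. Tnfrsf11a, which encodes RANK, overlapped between the groups with 334 and 273 CPM with RANKL and 276 and 213 CPM with M-CSF. Ikbke, a kinase of the antiviral pathway, was the gene that fell, by 1.71 on the log2 scale.

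Factors listed as brakes, most of them known to hold back osteoclast differentiation, mostly fell. Of 14 listed, with a median of -1.94, 11 fell and 1 rose, beside 23.5% lower and 25.8% higher of all genes. Irf8, the factor that maintains macrophage identity and blocks NFATc1, had 8.72 and 5.34 CPM in IRF7KO RANKL cells, against 161 and 171 CPM in IRF7KO M-CSF cells, and fell by 4.56 on the log2 scale (edgeR adjusted p = 6.46e-06). Id1, an inhibitor of helix-loop-helix factors, had 2.204 and 3.79 CPM with RANKL and 104 and 97.8 CPM with M-CSF. Neither gene overlapped between groups, and Id1 fell by 5.06. Cebpa, Maf, Id3, Bcl6, Id2 and Rbpj fell by between 1.38 and 3.17. Cebpa was counted in the list, but a role for it as a brake is not established here. Tsc22d3, a glucocorticoid-induced factor, was the gene that rose. Without either IRF7KO M-CSF library or without IRF7KO RANKL library 1, no brake was called higher.

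Co-stimulation through ITAM adaptors was mixed, with 5 of 18 genes higher and 7 lower, beside 25.8% and 23.5% of all genes. Siglec15 and Oscar rose as described, Syk, the kinase that ITAMs recruit, rose by 1.10 ± 0.19 and Lcp2, the adaptor SLP-76, by 1.13 ± 0.14. Trem2, a lipid receptor that signals through the adaptor DAP12, had 57.4 and 80.5 CPM in IRF7KO RANKL cells, against 619.7 and 639 CPM in IRF7KO M-CSF cells, and fell by 3.19 on the log2 scale. The 2 adaptors themselves differed: Fcer1g fell by 1.36, while Tyrobp had 746 and 744 CPM with RANKL and 882 and 827 CPM with M-CSF and was not called. Without IRF7KO M-CSF library 1 or IRF7KO RANKL library 2, 4 of these genes were called lower.

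The genes of osteoclast fusion were among the clearest rises. Dcstamp and Ocstamp, membrane proteins needed for osteoclast fusion, had 724 and 516 CPM and 300.1 and 372 CPM in IRF7KO RANKL cells, against 4.62 and 2.49 CPM and 0.697 and 0.325 CPM in IRF7KO M-CSF cells. Both were separated by more than 100-fold and were called, at 7.41 ± 0.38 and 9.28 ± 0.25 on the log2 scale. Of 12 fusion genes tested, 6 rose and 2 fell, beside 25.8% higher and 23.5% lower of all genes. The falls were Adam8, a membrane protease, and Cd81, a tetraspanin. Snx10, a sorting nexin needed for bone resorption, rose by 3.27 ± 0.17.

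The proton pump rose almost as a whole. Of 18 V-ATPase genes, 16 rose and 1 fell, with a median of 1.95. Atp6v0d2, the osteoclast isoform of the d subunit, had 2174 and 1901 CPM in IRF7KO RANKL cells, against 9.24 and 16.03 CPM in IRF7KO M-CSF cells, while the common isoform Atp6v0d1 had 312 and 268 CPM with RANKL and 159 and 179.9 CPM with M-CSF. The a subunits also diverged by isoform. Tcirg1, the a subunit of the ruffled border, had 2190.5 and 1763 CPM with RANKL and 409.8 and 365 CPM with M-CSF, whereas Atp6v0a1, the isoform of other membranes, had 51.4 and 40.5 CPM with RANKL and 230.2 and 243 CPM with M-CSF. Tcirg1 rose by 2.35 ± 0.21 and Atp6v0a1 fell by 2.37 (edgeR adjusted p = 7.07e-05 and 1.85e-05).

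Integrin beta chains moved in opposite directions. Itgb3, the beta chain of the osteoclast vitronectin receptor, had 406 and 854 CPM in IRF7KO RANKL cells, against 4.53 and 11.05 CPM in IRF7KO M-CSF cells. Itgb5, the beta chain that pairs with the same alpha chain in macrophages, had 71.8 and 61.6 CPM with RANKL and 449 and 516 CPM with M-CSF. Itgb3 rose by 6.36 ± 0.54 and Itgb5 fell by 2.86, while the shared alpha chain Itgav rose, with 964 and 937 CPM with RANKL and 329.6 and 343 CPM with M-CSF. Src, the kinase of the ruffled border and sealing zone, had 549 and 408 CPM with RANKL and 2.18 and 1.62 CPM with M-CSF. Myo1d, an unconventional myosin, had 853 and 683 CPM with RANKL and 3.40 and 5.74 CPM with M-CSF. Both were nearly silent without RANKL, and rose by 7.95 ± 0.34 and 7.41 ± 0.36. In all, 13 of 24 integrin and podosome genes rose, Cttn, Dock5 and Vcl among them, and 4 fell. Over all genes, 25.8% rose and 23.5% fell.

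A list of metalloproteinases that also holds the urokinase genes Plau and Plaur split into 4 that rose and 6 that fell of 12 tested. Over all genes, 25.8% rose and 23.5% fell. Mmp14, a membrane collagenase, had 672 and 481 CPM in IRF7KO RANKL cells, against 6.45 and 2.92 CPM in IRF7KO M-CSF cells, and rose by 6.91 ± 0.55. Plau, urokinase, fell by 3.93 and Plaur, its receptor, by 2.53. Mmp12, the macrophage elastase, had 27.7 and 17.2 CPM with RANKL and 189 and 231 CPM with M-CSF, and fell by 3.22.

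Nuclear-encoded genes of the tricarboxylic acid cycle and the respiratory chain rose almost without exception. The counts held no read on mitochondrial DNA, so genes encoded there were not tested. All 18 genes of the tricarboxylic acid cycle and 59 of 61 respiratory chain genes rose, with medians of 1.64 and 1.24 and no member lower. Pdhb, a subunit of pyruvate dehydrogenase, had 369.8 and 332 CPM in IRF7KO RANKL cells, against 62.4 and 63.4 CPM in IRF7KO M-CSF cells. Uqcrc2, a core subunit of complex III, had 539.7 and 561 CPM with RANKL and 132 and 139 CPM with M-CSF. Ndufv1, of the electron input module of complex I, had 219 and 244 CPM with RANKL and 68.3 and 60.9 CPM with M-CSF. In these genes the libraries of a group lay close together and the groups did not overlap, with rises of 2.48 ± 0.14, 2.02 ± 0.12 and 1.84 ± 0.13. The 2 respiratory chain genes that were not called, Ndufa7 and Ndufb2, also had both RANKL libraries above both M-CSF libraries.

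Few glycolysis and hypoxia genes passed the test, and their values differed between libraries of a group. The median of 21 glycolysis and hypoxia genes was 0.31. Of them, 2 rose (Hk1 and Pfkm) and 1 fell (Hk3), beside 25.8% higher and 23.5% lower of all genes. This depended on the fit: with the library number as a term within each treatment, added after seeing the data, 17 were called higher and 3 lower, with a median of 0.97. Bnip3, a hypoxia-induced mitophagy receptor, had 192 and 42.8 CPM in IRF7KO RANKL cells, against 21.4 and 47.9 CPM in IRF7KO M-CSF cells. Slc16a3, a lactate exporter, had 123 and 31.6 CPM with RANKL and 31.4 and 97.7 CPM with M-CSF. Both overlapped between the groups and were not called: library 1 was the high one with RANKL and the low one with M-CSF. Egln3, Ak4 and Ankrd37, also induced by hypoxia, had the same order in the RANKL pair and in the M-CSF pair of both genotypes. Without IRF7KO RANKL library 1, 3 genes of this list were called lower and the median turned to -0.19. The median was 0.06 without IRF7KO M-CSF library 1, 0.60 without IRF7KO M-CSF library 2 and 0.76 without IRF7KO RANKL library 2.

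**Figure D2:**
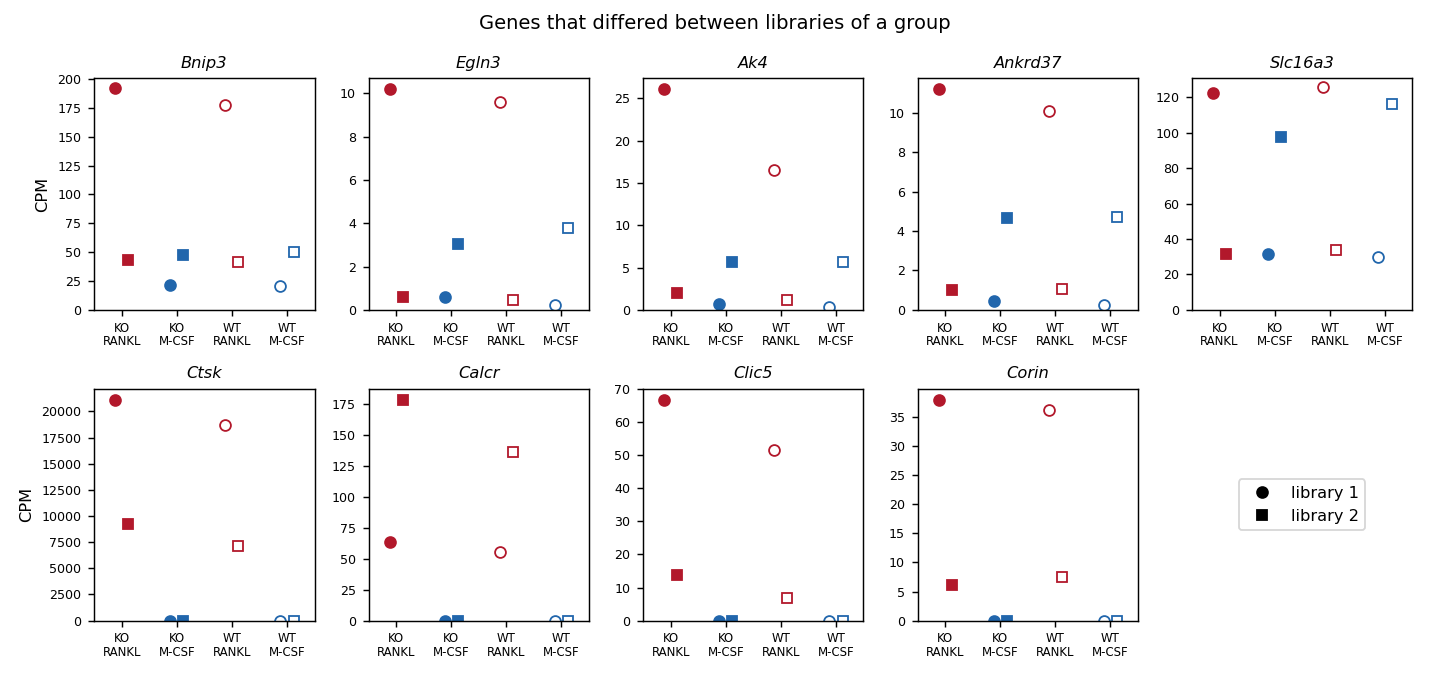
Level in CPM (linear axes from 0) in all 8 libraries for genes that differed between libraries of a group; filled symbols are IRF7KO, open symbols WT, circles library 1 and squares library 2. Bnip3, Egln3, Ak4, Ankrd37 and Slc16a3 are high in RANKL library 1 and low in M-CSF library 1 in both genotypes, while Ctsk, Calcr, Clic5 and Corin differ between the RANKL libraries but stay near 0 in every M-CSF library.

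Iron genes went both ways, with 6 of 12 higher and 5 lower, beside 25.8% and 23.5% of all genes. Tfrc, the transferrin receptor, had 5833 and 1599 CPM in IRF7KO RANKL cells, against 546 and 457 CPM in IRF7KO M-CSF cells, so the RANKL libraries differed from each other more than the lower of them did from M-CSF. It rose by 2.89 ± 0.76 (edgeR adjusted p = 0.0153), a call lost without IRF7KO RANKL library 1 or without either IRF7KO M-CSF library. Steap4, a metal reductase, had 51.5 and 65.3 CPM with RANKL and 2 reads over both M-CSF libraries, a ratio of 607 (95% exact interval 168 to 5015). Ncoa4, which delivers ferritin for degradation, rose by 2.47 ± 0.12. Hmox1, heme oxygenase, had 119 and 82.9 CPM with RANKL and 2495 and 3106 CPM with M-CSF, and fell by 4.79. Fth1, the ferritin heavy chain, Slc40a1, the iron exporter ferroportin, and Slc11a1, the phagosomal metal transporter, fell by 2.22, 3.24 and 3.36.

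Sterol genes, which SREBP2 controls, gave few calls. Of 20 cholesterol synthesis genes, none rose and 6 fell (30%), beside 25.8% higher and 23.5% lower of all genes. Their median was -0.64. Hsd17b7, an enzyme late in the pathway, fell by 1.34, and Tm7sf2, Dhcr7, Acat2 and Sqle by 0.84 to 1.15. Srebf2, which encodes SREBP2, had 271 and 225 CPM in IRF7KO RANKL cells, against 289 and 229 CPM in IRF7KO M-CSF cells; it was not called, at -0.06 ± 0.18 (edgeR adjusted p = 0.804). Without IRF7KO M-CSF library 1, 3 synthesis genes were called lower, with a median of -0.41. The median was -0.21 without IRF7KO RANKL library 2 and -0.96 without IRF7KO RANKL library 1. With the library number as a term within each treatment, 2 were called higher and 11 lower.

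Macrophage genes fell broadly. Of 27 macrophage receptors, 25 fell and 1 rose, with a median of -2.86. Cd36, a scavenger receptor for oxidised lipids, had 62.1 and 83.6 CPM in IRF7KO RANKL cells, against 2654 and 3038 CPM in IRF7KO M-CSF cells. Fcgr1, the high-affinity immunoglobulin G receptor, had 6.34 and 3.62 CPM with RANKL and 272 and 205 CPM with M-CSF. Cx3cr1, the fractalkine receptor, had 9.27 and 19.1 CPM with RANKL and 339 and 333 CPM with M-CSF. All 3 fell by more than 16-fold with no overlap, at -5.29 ± 0.28, -5.59 ± 0.29 and -4.56 ± 0.36 on the log2 scale. Csf1r, the M-CSF receptor, fell by 0.65, and Cd68, a lysosomal glycoprotein of macrophages and osteoclasts, was the gene that rose. Without either IRF7KO M-CSF library or without IRF7KO RANKL library 1, no gene of the list was called higher, and the call of Csf1r was lost without IRF7KO M-CSF library 1. The receptors Siglec1 and Marco split the RANKL libraries, with 48.03 and 7.67 CPM and 6.98 and 1.64 CPM. The call of Marco was lost without IRF7KO M-CSF library 1 or IRF7KO RANKL library 2.

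The largest falls included an organic anion transporter and matrix proteins. Slco2b1, the transporter, had 0.0918 and 0.172 CPM in IRF7KO RANKL cells, against 120.5 and 88.6 CPM in IRF7KO M-CSF cells, lower by a ratio of 797 on 3 RANKL reads (95% exact interval 272 to 3866). Fn1, fibronectin, had 1.65 and 1.03 CPM with RANKL and 648 and 312 CPM with M-CSF, and fell by 8.48. F13a1, the coagulation factor XIII A chain, had 6.98 and 3.62 CPM with RANKL and 434 and 406 CPM with M-CSF, and fell by 6.31. All 3 were close to absent after 3 days of RANKL. Others among the 20 were Fcrls, Nanos1, Ccl7, Hpgd, Trem1, Cyp4f18 and Ccnd2, with falls between 5.41 and 6.25 on the log2 scale. Ctla2a, a cathepsin inhibitor, had 1 RANKL read and was lower by a ratio of 280.2 (95% exact interval 49.9 to 11111).

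Genes typical of neutrophils made up much of the rest of the largest falls. Retnlg, Camp, Ltf, S100a9, Lcn2, S100a8 and Ngp were all among the 20, and all 13 neutrophil markers tested fell, with a median of -5.78. Their summed level was 9.09 and 26.6 CPM in IRF7KO RANKL cells, against 471 and 1387 CPM in IRF7KO M-CSF cells. It was 12.1 and 14.2 CPM in WT RANKL cells and 375 and 719 CPM in WT M-CSF cells. IRF7KO M-CSF library 2 had the highest sum of all 8. The B cell markers summed to 3.49 and 6.21 CPM with RANKL and 38.1 and 85.8 CPM with M-CSF, and all 5 tested fell. Markers of erythroid and megakaryocyte cells summed to at most 0.367 CPM with RANKL and 14.9 CPM with M-CSF, those of mast cells and basophils to at most 1.72 CPM and 9.31 CPM, and those of dendritic cells to at most 5.86 CPM and 15.9 CPM. T and NK cell markers summed to at most 4.48 CPM and stromal markers to at most 19.0 CPM in every IRF7KO library, and Cd3e, which defines T cells, had no read in the RANKL libraries and 1 in each M-CSF library. The part of other cells in the falls of macrophage genes was not tested.

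Complement and chemokine genes mostly fell. Of 12 complement genes, 7 fell and 1 rose, beside 23.5% lower and 25.8% higher of all genes. Their median was -1.67, or -1.73 without IRF7KO RANKL library 2. C1qb, a chain of C1q, had 97.6 and 92.8 CPM in IRF7KO RANKL cells, against 2126 and 1941 CPM in IRF7KO M-CSF cells, and C1qa and C1qc had falls of 4.50 and 4.25 beside its 4.42. C3ar1 and C5ar1, the anaphylatoxin receptors, fell by 3.48 and 3.71. Of 22 chemokine and cytokine genes, 12 fell and 5 rose, beside the same shares of all genes. Ccl7 and Ccl2, which attract monocytes, fell by 5.95 and 4.81, and Pf4 by 4.94. Ccr1, a chemokine receptor of osteoclasts, had 521 and 559 CPM with RANKL and 35.8 and 44.2 CPM with M-CSF, and rose by 3.76 ± 0.16. Il1rn, the interleukin-1 receptor antagonist, rose by 2.32 ± 0.36. Without IRF7KO RANKL library 2, 3 genes of this list were called higher.

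Of 36 genes of DNA replication and mitosis, with a median of -0.74, 21 fell and 2 rose, beside 23.5% lower and 25.8% higher of all genes. Without IRF7KO M-CSF library 1 or IRF7KO RANKL library 2, 1 was called higher. Ccnd1, cyclin D1, had 175 and 229 CPM in IRF7KO RANKL cells, against 1529.5 and 1474 CPM in IRF7KO M-CSF cells, and fell by 2.90. Pcna, the sliding clamp of DNA polymerase, had 118 and 153 CPM with RANKL and 664 and 703 CPM with M-CSF, and fell by 2.34. Mki67, a marker of cycling cells, had 296 and 331 CPM with RANKL and 346 and 412 CPM with M-CSF and was not called. Cdkn1b, the cell cycle inhibitor p27, rose by 1.60 ± 0.17, and Cdkn1a, the inhibitor p21, fell by 2.15.

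Lysosomal genes went both ways, with 10 of 29 higher and 12 lower, beside 25.8% and 23.5% of all genes. Ctsl, Ctsh and Ctss, cysteine proteases of macrophage lysosomes, fell by 2.39, 2.01 and 1.99. Hexa, an enzyme that degrades glycans, rose by 1.51 ± 0.21. Lamp1, a major lysosomal membrane protein, had 523 and 549 CPM in IRF7KO RANKL cells, against 1554 and 1681 CPM in IRF7KO M-CSF cells, and fell by 1.59.

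**Figure D3:**
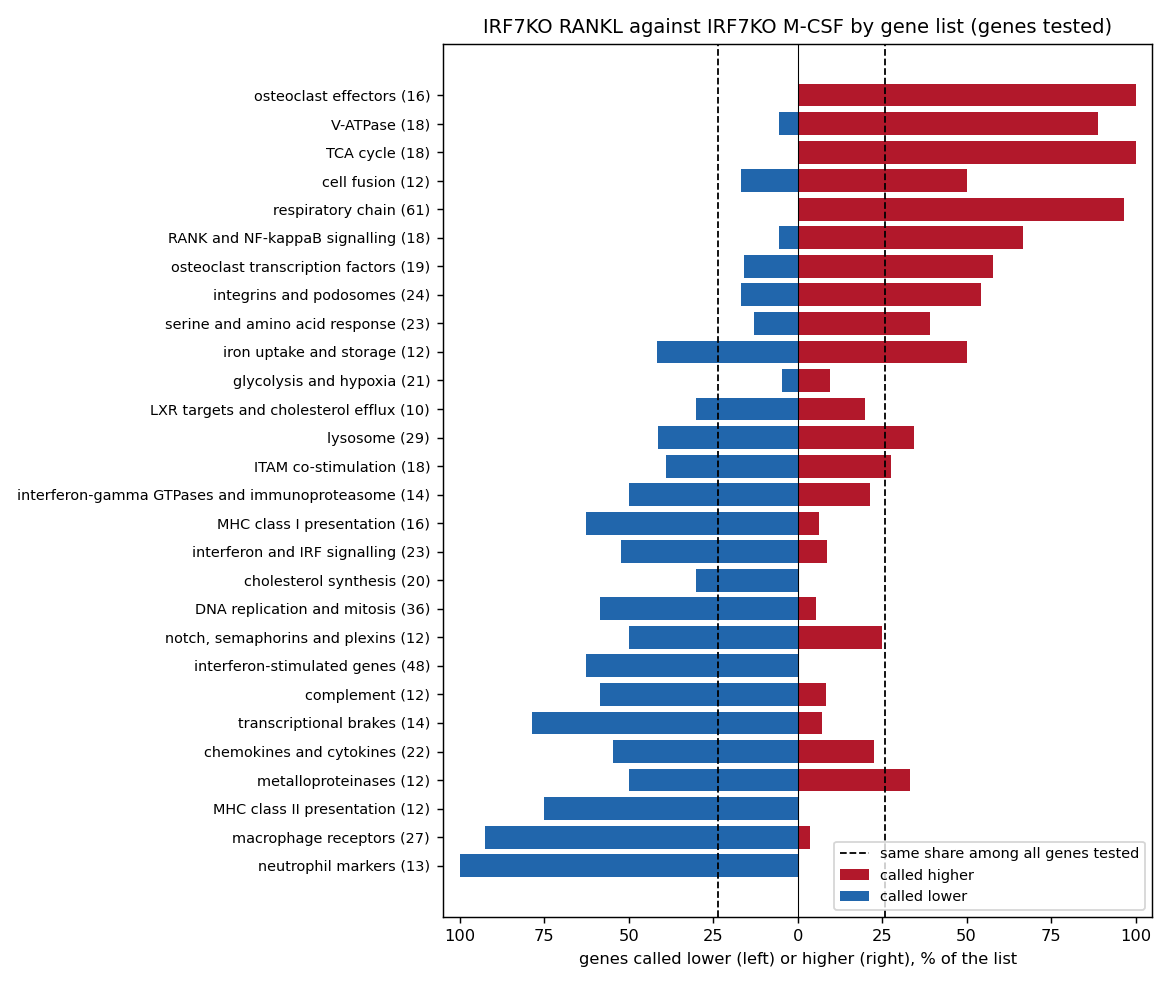
Share of each gene list called lower (blue, left) or higher (red, right) in IRF7KO RANKL against IRF7KO M-CSF cells, with the number of genes tested in parentheses and lists ordered by their median log2 fold change. Dashed lines mark the 23.5% lower and 25.8% higher among all genes tested. Osteoclast effectors and the TCA cycle are 100% higher and neutrophil markers 100% lower. The metalloproteinase list also holds the urokinase genes Plau and Plaur.

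Interferon-stimulated genes (ISGs), the targets of the pathway in which IRF7 acts, were mostly lower in RANKL-treated IRF7KO cells. Of 49 ISGs listed, 48 were tested, of which 30 fell, none rose and 18 were not called, with a median of -1.27 and 23.5% of all genes lower. In WT cells 16 of the 48 fell and 2 rose, with a median of -0.62. The counts rested on single libraries: 19 ISGs were lower without IRF7KO M-CSF library 1, 25 without IRF7KO RANKL library 2 and 40, with a median of -1.92, without IRF7KO RANKL library 1. Between the IRF7KO RANKL libraries the median ISG was 0.69 higher in library 1 on the log2 scale. The matching difference was 0.15 between the IRF7KO M-CSF libraries and -0.17 between the WT RANKL libraries.

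Bst2, a membrane protein that tethers budding virus, had 48.4 and 35.8 CPM in IRF7KO RANKL cells, against 189 and 212 CPM in IRF7KO M-CSF cells, and fell by 2.25 (edgeR adjusted p = 4.16e-05). Sp110, a nuclear body protein, had 8.26 and 6.21 CPM with RANKL and 52.3 and 51.6 CPM with M-CSF, and fell by 2.84. Dhx58, an RNA sensor of the RIG-I family, had 15.98 and 10.0 CPM with RANKL and 43.8 and 42.2 CPM with M-CSF, and fell by 1.73. None of these 3 overlapped between the groups. Rsad2, the antiviral enzyme viperin, had 5.42 and 3.71 CPM with RANKL and 25.4 and 10.4 CPM with M-CSF, against 11.1 and 15.0 CPM in WT RANKL and 16.1 and 13.2 CPM in WT M-CSF cells. Its log2 fold change was -1.98 ± 0.43 in IRF7KO cells and -0.16 ± 0.39 in WT cells. Ifit3, an RNA-binding antiviral protein, had 3.67 and 1.21 CPM with RANKL and 12.1 and 6.61 CPM with M-CSF, and fell by 1.96, with a value of -0.69 ± 0.42 in WT cells, and its call was lost without IRF7KO M-CSF library 1. Ly6a, the surface antigen Sca-1, had 2.94 and 1.64 CPM with RANKL and 4.97 and 3.57 CPM with M-CSF, and was not called, at -0.91 ± 0.50. Cxcl10, a chemokine induced by interferons, had 7.07 and 7.07 CPM with RANKL and 10.7 and 3.03 CPM with M-CSF in IRF7KO cells, which overlapped, against 16.6 and 25.6 CPM with RANKL and 3.33 and 3.02 CPM with M-CSF in WT cells, which did not.

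The genotype gap in ISGs was present in both states. Both IRF7KO RANKL libraries lay below both WT RANKL libraries at 46 of 48 ISGs (12.2% of all genes), and both IRF7KO M-CSF libraries below both WT M-CSF libraries at 33 of 48 (14.2% of all genes). The difference between the responses was below 0 at 47 of 48 ISGs, beside 50.3% of all genes, with a median of -0.55. It had an unadjusted p under 0.05 at 7 of them, beside 1.12% of all genes, and none passed adjustment. Without IRF7KO RANKL library 2 the median difference was -0.15, with 35 of 48 below 0, and without IRF7KO RANKL library 1 it was -1.17, with 48 of 48 below 0. With the library number as a term within each treatment, 20 ISGs had an unadjusted p under 0.05 and 1 passed adjustment. A difference below 0 also occurred at 22 of 27 macrophage receptors, with a median of -0.39.

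**Figure D4:**
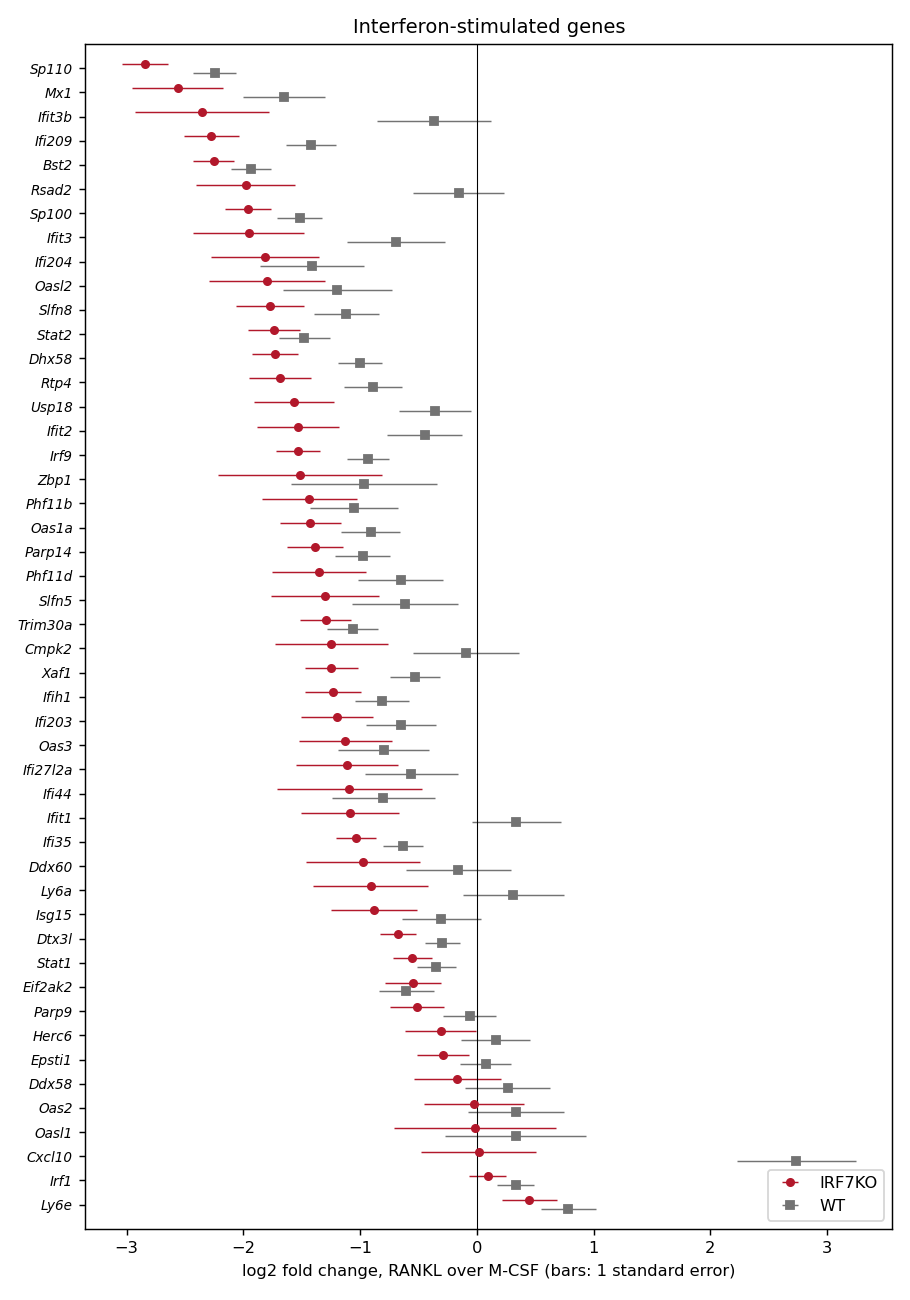
Log2 fold change of RANKL over M-CSF (bars: 1 SE, derived from the F statistic) for the 48 interferon-stimulated genes tested, in IRF7KO cells (red circles) and WT cells (grey squares), ordered by the IRF7KO value. The IRF7KO point lies left of the WT point at 47 of 48 genes; Sp110 has the lowest IRF7KO value and Cxcl10 the widest gap.

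The region before the start of ISGs often holds the element bound by interferon regulatory factors, and that region was searched as a description of sequence. The list holds known interferon targets, so a high share of this element follows from how the list was chosen. That share carries no information on the RANKL response. Windows of 250 bases before to 50 after each start came from RefSeq, build GRCm38.p6, and matched 8558 of the 10788 genes and 35 of the 48 ISGs. The interferon-type motif, GAAA followed by any 2 bases and GAAA again, on either strand, was found in 18 of 35 ISG windows (51.4%), in 2.19% of genes called higher and 4.88% of genes called lower, beside 3.17% of all windows. The AP-1 motif TGANTCA was found in 10 of 35 ISG windows (28.6%), beside 4.62% of all windows, 5.52% of genes called higher and 5.69% of genes called lower. Neither motif occurred in the 9 matched windows of the osteoclast effectors, Ctsk among them. A match shows letters in a window and no binding.

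The 250 bases before the start of 4 ISGs that hold motifs and of Ctsk, the effector with the highest level per kilobase, are shown 5′ to 3′ on the gene's strand, with every match to either motif in capitals; overlapping matches join into 1 run. Ifit3 is at chr19:34583279-34583528 (+), Rsad2 at chr12:26456453-26456702 (-), Bst2 at chr8:71537473-71537722 (-), Oas1a at chr5:120907526-120907775 (-) and Ctsk at chr3:95498960-95499209 (+).
Ifit3: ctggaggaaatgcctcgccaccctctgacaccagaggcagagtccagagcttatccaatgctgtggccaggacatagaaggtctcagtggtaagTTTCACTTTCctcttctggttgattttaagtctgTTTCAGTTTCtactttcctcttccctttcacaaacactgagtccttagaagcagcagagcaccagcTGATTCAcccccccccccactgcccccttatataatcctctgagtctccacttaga
Rsad2: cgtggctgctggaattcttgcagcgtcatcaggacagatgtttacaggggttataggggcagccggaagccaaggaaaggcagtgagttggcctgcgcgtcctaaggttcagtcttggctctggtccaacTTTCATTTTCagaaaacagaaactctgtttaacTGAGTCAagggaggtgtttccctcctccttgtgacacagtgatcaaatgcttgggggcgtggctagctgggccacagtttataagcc
Bst2: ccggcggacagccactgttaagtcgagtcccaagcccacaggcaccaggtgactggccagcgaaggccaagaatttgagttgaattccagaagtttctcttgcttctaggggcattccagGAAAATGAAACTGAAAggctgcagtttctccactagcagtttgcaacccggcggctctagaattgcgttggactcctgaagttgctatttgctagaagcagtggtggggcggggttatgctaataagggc
Oas1a: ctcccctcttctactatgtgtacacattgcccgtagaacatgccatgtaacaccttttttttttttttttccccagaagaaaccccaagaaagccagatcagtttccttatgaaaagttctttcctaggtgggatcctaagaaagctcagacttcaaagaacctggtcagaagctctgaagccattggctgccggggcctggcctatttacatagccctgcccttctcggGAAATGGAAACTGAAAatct
Ctsk: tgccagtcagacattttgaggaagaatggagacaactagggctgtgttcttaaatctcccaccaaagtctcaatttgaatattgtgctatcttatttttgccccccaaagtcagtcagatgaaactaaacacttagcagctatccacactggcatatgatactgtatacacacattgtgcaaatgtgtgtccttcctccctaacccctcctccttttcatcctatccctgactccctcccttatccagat

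Ifit3 has 2 interferon-type matches, written on the opposite strand as TTTC runs, and 1 AP-1 match nearer the start, and Rsad2 has 1 of each. In Bst2 and Oas1a, 2 interferon-type matches overlap. Oas1a, a sensor of double-stranded RNA, had 27.5 and 14.3 CPM in IRF7KO RANKL cells, against 54.7 and 57.7 CPM in IRF7KO M-CSF cells, and fell by 1.43. The window of Ctsk, the gene with the highest level per kilobase, holds no match.

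Many genes of the wider interferon pathway and of antigen presentation also fell in IRF7KO cells, where 23.5% of all genes fell and 25.8% rose. Of 23 genes of interferon and IRF signalling, 12 fell and 2 rose, or 1 rose without either IRF7KO M-CSF library. Irf5 and Tmem173, which encodes STING, fell by 1.98 and 2.35. Ifnb1, which encodes interferon-beta, was not kept by the filter, with at most 1 count in any library. Of 12 MHC class II presentation genes, 9 fell, with a median of -2.39, as did 9 in WT cells, with a median of -1.79. Cd74, the invariant chain, had 28.5 and 40.3 CPM in IRF7KO RANKL cells, against 126 and 174 CPM in IRF7KO M-CSF cells, and fell by 2.13. Of 16 MHC class I genes, 10 fell and 1 rose in IRF7KO cells, and 4 fell and 1 rose in WT cells. The 10 became 5 without IRF7KO M-CSF library 1, and 4 without IRF7KO M-CSF library 2 or IRF7KO RANKL library 2. Among 14 interferon-gamma GTPases and immunoproteasome genes, 7 fell and 3 rose in IRF7KO cells and 3 fell and 5 rose in WT cells, and the difference between responses was below 0 at all 14. The 3 rises became 1 without IRF7KO M-CSF library 1 or IRF7KO RANKL library 1. Gbp7, a guanylate-binding protein, rose in IRF7KO cells by 3.38 ± 0.33, with 33.7 and 24.1 CPM with RANKL and 3.66 and 1.73 CPM with M-CSF.

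Most genes called in IRF7KO cells were also called in WT cells. RANKL changed 5118 genes in WT cells (47.4%), 2688 higher and 2430 lower. Of the genes that rose in IRF7KO cells, 2488 also rose in WT cells, which is 89.4% of the IRF7KO rises and 92.6% of the WT rises. For falls the shared number was 2211, or 87.2% of the IRF7KO and 91.0% of the WT falls. A single gene, Smco3, fell in IRF7KO and rose in WT cells. Across genes, the log2 fold changes in IRF7KO and WT cells had a Pearson r of 0.978 and a Spearman rho of 0.966 (n = 10788 genes, which are not independent replicates), with a slope of 0.993. The 2 genotypes were compared on libraries of their own, but their RANKL libraries differed between library 1 and 2 in the same way.

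By fitted values, the effector genes had a median of 8.02 in IRF7KO and 8.63 in WT cells. Gene by gene, the difference between responses had a median of 0.16, with 9 of 16 genes above 0 and 7 below. This median was -0.17 to 0.27 when each IRF7KO library was left out. By edgeR's quasi-likelihood test, 0 of 16 had an unadjusted p under 0.05 for the difference. That number was 5 with the library number as a term within each treatment, 4 without the filter on low counts, 2 without WT RANKL library 1 and 1 without IRF7KO M-CSF library 1. Nfatc1 had 3.60 ± 0.29 in IRF7KO cells beside 3.49 ± 0.29 in WT cells, a difference of 0.11 ± 0.38 (unadjusted p = 0.777 from the edgeR model). Itgb3 had 6.36 ± 0.54 in IRF7KO beside 5.73 ± 0.53 in WT cells, and the difference of 0.63 ± 0.67 was within its error. The respiratory chain, at 1.24 in IRF7KO and 1.21 in WT cells, and the V-ATPase genes, at 1.95 and 1.73, also had medians close to each other.

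**Figure D5:**
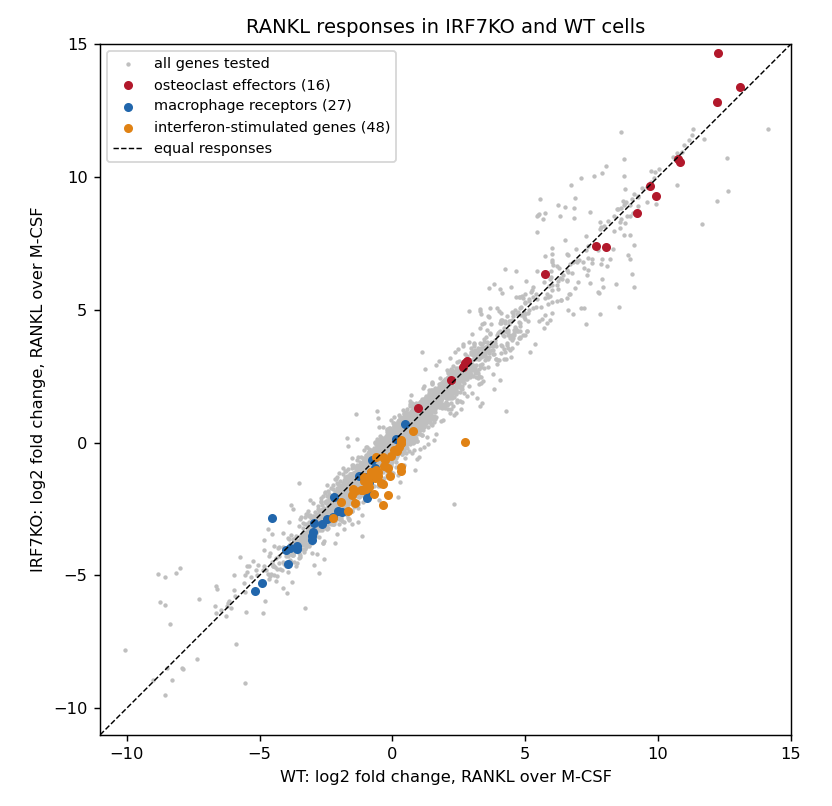
Log2 fold change of RANKL over M-CSF in IRF7KO cells (vertical) and WT cells (horizontal) for 10788 genes, with the line of equal responses. The interferon-stimulated genes (orange) lie below the line at 47 of 48 genes, macrophage receptors (blue) at 22 of 27 and osteoclast effectors (red) at 7 of 16.

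No gene's response differed between the genotypes after adjustment over all genes, by edgeR's quasi-likelihood test, DESeq2's Wald test or limma-voom, while edgeR's likelihood ratio test called 1. At an unadjusted p under 0.05 there were 121 genes (1.12%), 99 of them with a more negative response in IRF7KO cells (0.918%), beside 78 by DESeq2 and 119 by limma-voom. A fit with the library number as a term within each treatment, added after seeing the data, called 40 genes, 34 of them more negative in IRF7KO cells. The 10 with the smallest p included Neurl3, an E3 ubiquitin ligase, with 34.8 and 33.3 CPM in IRF7KO RANKL and 141 and 135 CPM in IRF7KO M-CSF cells, against 48.1 and 52.7 CPM in WT RANKL and 114 and 118 CPM in WT M-CSF cells. It fell in both genotypes, with a difference of -0.81 ± 0.15 (unadjusted p = 0.000598 in edgeR, adjusted p = 0.9999). Smco3 had 0.643 and 0.603 CPM in IRF7KO RANKL and 3.40 and 2.82 CPM in IRF7KO M-CSF cells, against 0.383 and 0.842 CPM in WT RANKL and 0.0793 and 0.163 CPM in WT M-CSF cells, so the M-CSF libraries of the genotypes were further apart than the RANKL libraries. Rgs18, Mgst1 and Eps8 fell further in IRF7KO cells, by differences of -1.15, -1.12 and -1.05. C3, the central complement component, had 67.8 and 65.0 CPM in IRF7KO RANKL and 41.8 and 63.6 CPM in IRF7KO M-CSF cells, against 88.3 and 112 CPM in WT RANKL and 28.3 and 35.7 CPM in WT M-CSF cells, and was called in WT and not in IRF7KO cells, with a difference of -1.31 ± 0.31. Vegfc, a lymphatic growth factor, rose in both genotypes, with a difference of -2.13 ± 0.53. Lrrc27 was the 1 of the 10 with a positive difference, at 1.88 ± 0.45.

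The other experiment of the series holds an independent RANKL response, from LysM-Cre control BMMs with 2 libraries a group, in which 6129 of 10598 shared genes passed the test (57.8%). That test was fitted over all libraries of that experiment, the SREBP2-deficient ones included. Of the IRF7KO rises in that table, 2366 of 2718 also rose in LysM-Cre cells, which is 87.0% of the IRF7KO and 76.8% of the 3079 LysM-Cre rises. Of the falls, 1950 of 2488 were shared, or 78.4% of the IRF7KO and 63.9% of the 3050 LysM-Cre falls. Opposite calls were made at 8 genes higher and 16 genes lower in IRF7KO cells. Over the 3079 LysM-Cre rises the median response was 0.92 in IRF7KO and 0.90 in WT cells, and over the 3050 falls -0.70 in IRF7KO and -0.69 in WT cells.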

How the data were processed

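Poly(A) RNA of IRF7KO and WT BMMs was sequenced as stranded paired-end libraries, 2 per group. By the submitters' processing notes, the tools were bcl2fastq 1.8.4, fastp, STAR 2.7.3a and edgeR with the mm10 genome; the counting tool, its strand setting and the annotation are named in none of the sources used, so reads of overlapping or antisense genes may be shared. The deposited values used were whole-number read counts per gene, which the authors gave for all 22001 genes and again for the 10788 that passed their expression filter. The lowest kept gene reached a fitted level of 2.88 CPM in its highest group, and 63 genes passed through IRF7KO RANKL alone. A table of the authors' log2 CPM was not used.

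The filtered counts were fitted in edgeR 4.0.16 (R 4.3.3) with TMM scaling and robust quasi-likelihood dispersion, 1 coefficient per group over 8 libraries (4 residual degrees of freedom, biological coefficient of variation 0.152). Contrasts were RANKL against M-CSF in IRF7KO and in WT cells, and the difference between these responses. P-values were adjusted by Benjamini-Hochberg over all kept genes, with a threshold of 0.05. The fit was also run on simulated counts with changes at few genes of 1 group, far fewer than were called in these data. Those counts held no differences shared by same-numbered libraries, so that run does not cover these features of the data. The LysM-Cre response came from the same kind of fit over all 8 libraries of the other experiment, SREBP2-deficient ones included. RPKM used union exon lengths of the GENCODE annotation of mm10. CPM used the TMM-scaled library size, library differences used log2(CPM + 1), and exact intervals and the floor of 3 counts per library cover counting error only.

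Named genes were the 20 largest rises and falls with at least 10 CPM and no overlap, the 10 smallest p-values of the difference, up to 6 members of each of 34 lists by p, genes the study measured, and the 10 most abundant per kilobase. Other genes were named after their values were seen, including the hypoxia genes, the lower-ranked list members and the promoters printed. The members and lists were chosen with earlier results of these data known. Alternatives (limma 3.58.1, DESeq2 1.42.0) were other scalings, tests, filters and call rules, a replicate term, the 4 IRF7KO libraries alone and each library left out. A few named list members are not reported here.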

Additional observations from a re-analysis of the deposited data

How the results depend on the processing

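The number of genes called in the IRF7KO response lay between 4933 and 6284 under other scalings, tests, filters and library sets. It was 3769 to 5267 when each library was left out, and 2857 when a fold change over 2 was also required. In WT cells the leave-one-out range was 3887 to 5305 and the number with a fold change over 2 was 2713. For the difference between responses, the likelihood ratio test called 1 gene, the table without a filter 11, the rule of unadjusted p under 0.05 with a fold change over 1.5 called 91, and leaving out each library called 0 to 0. A replicate block called 6074 genes in IRF7KO cells, 5887 in WT cells and 0 for the difference. No source used says whether the numbers mark a shared animal or day. The deviations of same-numbered libraries correlated at 0.0922 between the IRF7KO groups. Between the genotypes they correlated at 0.753 for the RANKL groups and at 0.504 for the M-CSF groups. A replicate block within each treatment, added after seeing the data, called 6994, 6760 and 40. The cause of these changes was not tested.

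Among the named genes, those that reversed direction were never called in IRF7KO cells. Gm42418 was 0.00069 with DESeq2 size factors and with the Wald test, and -0.13 to 0.11 over libraries left out. Cxcl10 was -0.000483 without a filter, -0.60 with the block within treatment and -0.60 to 1.22 over libraries left out. The other leave-one-out ranges that crossed 0 were -0.37 to 1.96 for Irf7, -0.22 to 0.12 for Srebf2, -0.10 to 0.18 for Rplp1 and -0.18 to 0.43 for Lrrc27. Depth limits genes with few reads in 1 group, for which bounds or counting intervals are given in place of fitted fold changes.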

Other observations

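Guidance receptors and their ligands moved in both directions in IRF7KO cells, with 3 of 12 Notch, semaphorin and plexin genes higher and 6 lower, beside 25.8% and 23.5% of all genes. Plxnd1, a semaphorin receptor, had 1169.6 and 1022 CPM in IRF7KO RANKL cells, against 142 and 142 CPM in IRF7KO M-CSF cells, and rose by 2.95 ± 0.15. Sema4d, a semaphorin that osteoclasts secrete towards osteoblasts, had 1091 and 835 CPM with RANKL and 256 and 300.1 CPM with M-CSF. Nrp1, a semaphorin co-receptor, had 32.2 and 21.03 CPM with RANKL and 319 and 343 CPM with M-CSF, and fell by 3.64. Notch1 and its ligand Jag1 fell by 3.06 and 1.94. None of these genes overlapped between the groups.

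Of 23 serine and amino acid response genes, 9 were higher and 3 lower, beside 25.8% and 23.5% of all genes. Their median was 0.51. It was 0.58 without IRF7KO M-CSF library 1, 0.45 without IRF7KO M-CSF library 2 and 0.12 without IRF7KO RANKL library 1. With the library number as a term within each treatment, 14 were higher. Asns, asparagine synthetase, had 128 and 50.9 CPM in IRF7KO RANKL cells, against 21.4 and 21.01 CPM in IRF7KO M-CSF cells. Chac1, a glutathione-degrading enzyme, had 15.2 and 1.21 CPM with RANKL and 0.262 and 0.217 CPM with M-CSF, and its call was lost when any 1 of those 3 libraries was left out. Library 1 was the higher RANKL library for both, as it also was in WT cells, with 92.4 and 45.1 CPM for Asns and 8.69 and 1.45 CPM for Chac1.

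Of 10 LXR target and cholesterol efflux genes, 2 rose and 3 fell in IRF7KO cells, beside 25.8% higher and 23.5% lower of all genes. Their median was 0.10, or -0.04 without IRF7KO RANKL library 1. The rises became 1 without IRF7KO M-CSF library 2 or either IRF7KO RANKL library. Apoe, the apolipoprotein that carries cellular cholesterol, had 284 and 168 CPM in IRF7KO RANKL cells, against 3567 and 3188 CPM in IRF7KO M-CSF cells, and fell by 3.90. Abcg1, a sterol exporter, had 94.03 and 65.9 CPM with RANKL and 6.62 and 11.5 CPM with M-CSF in IRF7KO cells, against 131 and 116 CPM with RANKL and 6.34 and 6.54 CPM with M-CSF in WT cells. It rose by 3.16 ± 0.27 in IRF7KO and 4.26 ± 0.28 in WT cells, and the difference did not pass adjustment over all genes (unadjusted p = 0.0191 from the edgeR model).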
